A study of Mus musculus with 8 samples.

Results

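The genes described here are 10 members of the fibroblast growth factor (FGF) system in the mouse heart. They are the secreted ligand genes Fgf1, Fgf2, Fgf9, Fgf16 and Fgf21, the FGF homologous factor genes Fgf12 and Fgf13, and the receptor genes Fgfr1, Fgfr2 and Fgfr4. They were found by gene symbol in the platform annotation, among 19933 genes that had a transcript cluster (the array's gene-level probe set) of their own, and each had 1 such cluster. All 10 lay above the filter on dim genes and were among the 14950 genes tested. The members were chosen with the difference between knockout and wild type hearts in view, so their differences are given as a description, with standard errors and no p-value.

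Secreted FGFs bind tyrosine kinase receptors together with heparan sulfate chains at the cell surface, and the activated receptor signals through adaptor proteins to the RAS and ERK kinase cascade, which in turn induces inhibitors of the pathway. FGF21, an endocrine FGF, binds heparan sulfate weakly and uses the co-receptor beta-klotho in its place. The homologous factors lack a secretion signal and act inside the cell, where they bind voltage-gated sodium channels. In the mouse heart FGF16 is a ligand of the postnatal myocardium, and FGF9 and FGF16 belong to 1 subfamily of closely related ligands.

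The knockout (KO) group held hearts of 4 male C57BL/6 mice deficient in HDAC3, a histone deacetylase that works in nuclear receptor corepressor complexes, and the wild type (WT) group held hearts of 4 male C57BL/6 mice. All mice were 6 weeks old and ate normal chow. The design text names the knockout MCH3-KO. The sources used here do not say what this name stands for, which cells lost the gene or which promoter drove its loss. Total RNA of each heart went onto 1 Affymetrix Mouse Gene 1.0 ST array. All values are log2 of the deposited intensity, and differences are KO minus WT.

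Hdac3 was 8.50 to 8.59 in the KO hearts, against 10.04 to 10.20 in WT hearts, so each array matched its label. Array medians were 54.1 to 56.5 in KO and 54.3 to 54.9 in WT on the intensity scale. Over all genes tested, 24.6% were called at a limma adjusted p under 0.05, 10.8% higher and 13.9% lower in KO. All 10 cardiomyocyte markers were above the filter, and their summed intensity was 72187 to 73260 in KO hearts and 75840 to 77273 in WT hearts. The sum of 8 macrophage markers was 4691 to 5588 in KO hearts and 1838 to 2162 in WT hearts, and all 8 were called higher. Atrial markers varied between hearts within a group. The atrial marker sum was 5230 in WT replicate 4 and 12531 to 14670 in the other WT hearts, with 13127 to 18233 in KO. The gene Bmp10, which marks the right atrium, was 4.85 in KO replicate 3, 4.03 in WT replicate 2 and 4.26 in WT replicate 4, and 9.06 or more in the other hearts. Fewer cells of a type and less RNA per cell cannot be told apart in whole hearts.

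The clearest difference among the ligands was that of Fgf16. Fgf16 (cluster 10601350) had values of 7.58, 7.57, 7.42 and 7.61 in KO hearts, against 9.78, 9.74, 9.50 and 9.41 in WT hearts. Every KO heart lay below every WT heart, with a gap far wider than the spread of either group. The means were 7.55 ± 0.08 in KO and 9.61 ± 0.18 in WT (SD, n = 4 each), a difference of -2.06 (SE 0.09, 95% interval -2.26 to -1.86), which put KO at 24.0% of the WT level. By size this was the 4th largest fall and the 6th largest difference of all genes tested. The difference lay between -2.13 and -1.97 in all 18 alternative analyses, and it was -2.05 when the 3 hearts low in Bmp10 were left out. Of the 10 cardiomyocyte markers 3 were called lower and 0 higher, and their part in the Fgf16 difference was not tested. The sum of 6 epicardial markers was 351 to 371 in KO hearts and 347 to 361 in WT hearts, and 0 of the 6 were called.

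Fgf9, the relative of Fgf16 best known for its action on the embryonic heart, was also lower in KO hearts, by much less. Its values were 6.44, 6.22, 6.33 and 6.46 in KO hearts, against 6.71, 6.83, 6.76 and 6.59 in WT hearts. The groups did not overlap, although the highest KO heart and the lowest WT heart were close. The means were 6.36 ± 0.11 in KO and 6.72 ± 0.10 in WT (SD, n = 4 each), a difference of -0.36 (SE 0.07, 95% interval -0.52 to -0.20). The remaining gene of that subfamily, Fgf20, was tested and differed by 0.11 (limma adjusted p = 0.466), with means of 4.99 in KO and 4.88 in WT that lay little above the filter level of 4.5.

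Fgf2 was the member that was higher in KO hearts. FGF2 is a broad mitogen for fibroblasts, endothelial and smooth muscle cells and is made by several cell types of the heart. Its values were 8.26, 8.13, 8.16 and 7.97 in KO hearts, against 7.63, 7.40, 7.44 and 7.43 in WT hearts. No KO heart reached down to the WT range. The means were 8.13 ± 0.12 in KO and 7.47 ± 0.10 in WT (SD, n = 4 each), a difference of 0.66 (SE 0.07, 95% interval 0.49 to 0.82), or 1.58-fold. Macrophage markers were higher in the same hearts. Within the groups their order did not follow that of Fgf2 throughout. KO replicate 4 had the lowest Fgf2 value and the lowest macrophage sum in KO (4691), whereas WT replicate 1 had the highest Fgf2 value and the lowest macrophage sum in WT (1838), and WT replicate 2 the lowest Fgf2 value and the highest sum (2162). Of 8 fibroblast markers 2 were called higher and 0 lower, with sums of 7996 to 8694 in KO and 7782 to 8153 in WT, and of 8 endothelial markers 0 were called. The part of these cell types in the Fgf2 difference was not tested.

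Fgf1, a ligand that binds all FGF receptors, was nearly the same in both groups. Its values were 9.68, 9.68, 9.69 and 9.64 in KO hearts, against 9.71, 9.61, 9.63 and 9.63 in WT hearts. The groups overlapped, and the difference was 0.03 (SE 0.05, 95% interval -0.07 to 0.13). This interval is narrow enough to leave out a change of the size seen for Fgf2 or Fgf9.

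**Figure D1:**
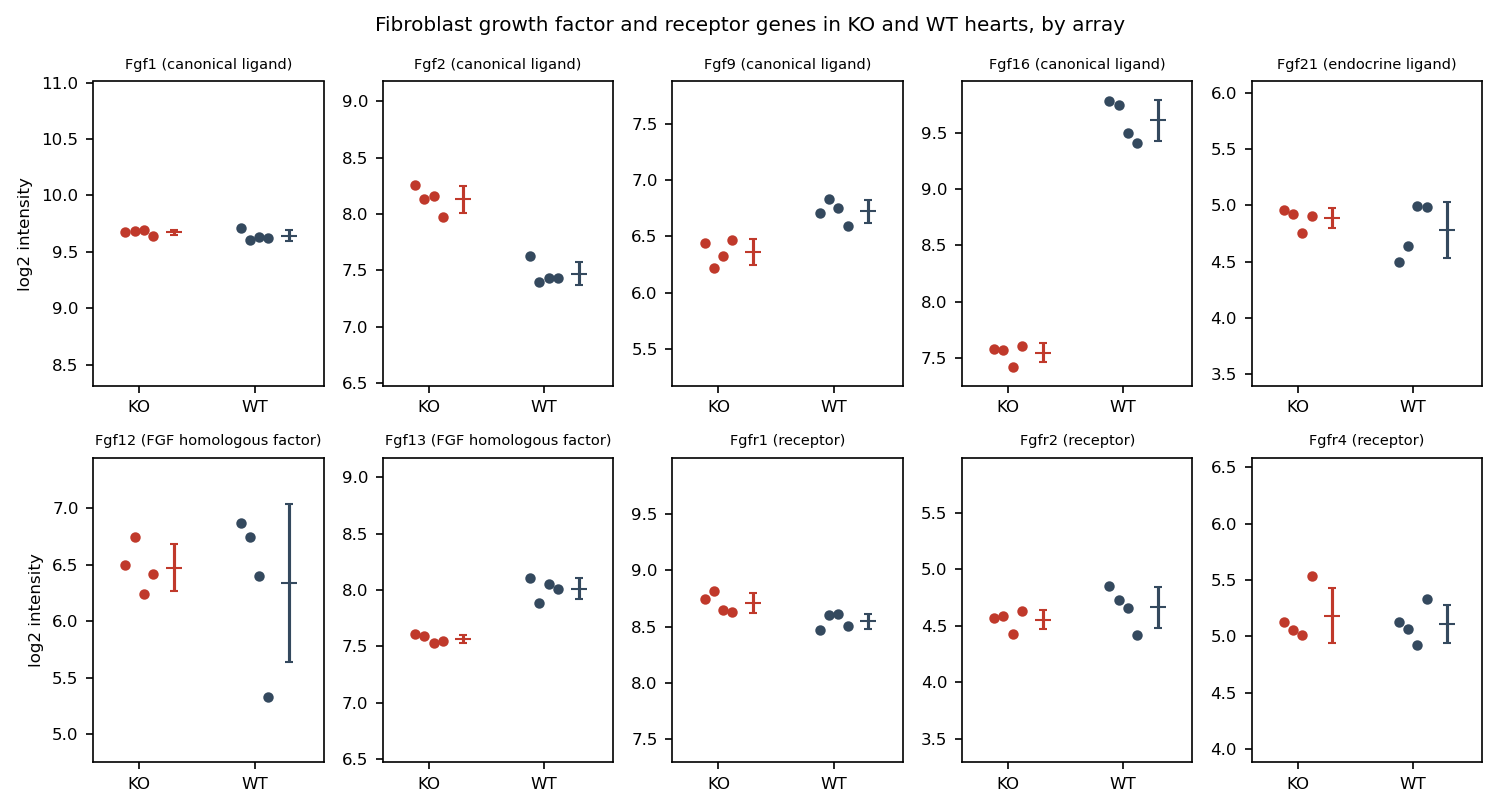
Log2 intensity of the 10 genes in each heart, KO at the left and WT at the right of each panel, with the mean and SD of 4 arrays beside the points. Panels have different levels but span the same number of log2 units. Fgf16 shows the widest separation (means 7.55 in KO and 9.61 in WT), and Fgf12 the widest spread within a group (SD 0.70 in WT).

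Fgf21, the endocrine ligand known as a stress hormone of liver and muscle, was dim on every array. Its values were 4.96, 4.92, 4.75 and 4.91 in KO hearts, against 4.499, 4.64, 4.996 and 4.99 in WT hearts. All KO values lay inside the WT range. The difference was 0.11 (SE 0.11, 95% interval -0.14 to 0.35), and all values lay close to the filter level of log2 4.5, so a lower level could hardly have been seen, and the table holds no detection call. The co-receptor gene Klb, which encodes beta-klotho, lay below the filter with means of 4.14 in KO and 4.13 in WT and was not tested.

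In mouse and human cells Fgf21 is a target of ATF4, the transcription factor that answers amino acid shortage and other cell stress, which binds composite C/EBP-ATF elements. The promoter of Fgf21 is shown because such an element lies in it and because other genes of that response differed between these hearts. The 250 bases before the start are given from RefSeq (GRCm38.p6, chr7:45615491-45615740, minus strand), 5′ to 3′, with the match to the motif TGATGNAA, here in reverse orientation, in capitals.
Fgf21: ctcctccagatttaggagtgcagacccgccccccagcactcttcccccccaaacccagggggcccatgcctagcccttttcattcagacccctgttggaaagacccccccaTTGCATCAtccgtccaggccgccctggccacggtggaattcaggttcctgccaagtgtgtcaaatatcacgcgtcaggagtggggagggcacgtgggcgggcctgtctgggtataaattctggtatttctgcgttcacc

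The motif was searched on both strands in the 250 bases before each start, after the values had been seen. It was present before 1056 of 27025 genes with a promoter in the RefSeq table (3.9%), before 8 of 25 genes of the ATF4 list (32%) and before 1 of the 7 members with an entry, Fgf21. A match is a description of the letters and shows no binding. Of the 8 list genes with a match, Asns, Chac1, Pck2 and Nupr1 were called higher in KO hearts, and Atf3 and Vldlr were not called. Pycr1 and Slc7a11 were not tested. No match was found before Mthfd2, Atf5 or Slc7a5, which rose as given below. Matches of 3 of the 8 list genes are set out beside that of Fgf21, each with its flanks and with the match in capitals (GRCm38.p6). They are Fgf21 at chr7:45615608-45615643 (minus strand), Asns at chr6:7693211-7693246 (minus strand), Chac1 at chr2:119351035-119351070 (plus strand) and Atf3 at chr1:191183422-191183457 (minus strand).
Fgf21: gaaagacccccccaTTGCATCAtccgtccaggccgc
Asns: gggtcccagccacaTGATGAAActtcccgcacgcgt
Chac1: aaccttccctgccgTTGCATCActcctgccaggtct
Atf3: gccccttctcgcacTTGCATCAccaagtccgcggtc

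Among the 23 tested genes of the ATF4 list, 14 rose and 1 fell (limma, adjusted p under 0.05). The share called was 65.2%, against 24.6% of all genes, and the median difference was 0.29 against -0.01 for all genes. Mthfd2, an enzyme of mitochondrial folate metabolism, was 7.90, 8.17, 7.75 and 7.71 in KO hearts, against 6.00, 5.91, 6.18 and 6.06 in WT hearts (difference 1.85, SE 0.10, adjusted p = 1.8e-06). Asparagine synthetase (Asns) rose by 1.28 (SE 0.11, adjusted p = 2.69e-05), the transcription factor gene Atf5 by 0.50 (SE 0.06, adjusted p = 0.000283) and the amino acid transporter gene Slc7a5 by 0.73 (SE 0.10, adjusted p = 0.000544). Chac1 rose by 0.60 (adjusted p = 0.00363) and Atf3 differed by 0.22 (adjusted p = 0.187). Shmt2 fell by 0.17, and its call was kept in 10 of 19 alternatives. Chac1, Atf3 and Shmt2 were named after their values were seen. In the same hearts the difference of Fgf21 was 0.11, between 0.01 and 0.18 over 17 alternative analyses.

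The homologous factors divided. Fgf13, whose protein regulates the cardiac sodium current, was lower in KO hearts, with values of 7.61, 7.59, 7.53 and 7.54, against 8.11, 7.88, 8.05 and 8.01 in WT hearts. The groups did not overlap. The means were 7.57 ± 0.04 in KO and 8.01 ± 0.10 in WT (SD, n = 4 each), a difference of -0.44 (SE 0.06, 95% interval -0.57 to -0.32). Fgf14, a close relative best known from neurons and not one of the 10 genes, was tested and fell by more. It had values of 5.53, 5.32, 5.20 and 5.31 in KO hearts, against 6.43, 6.28, 6.25 and 6.16 in WT hearts, a difference of -0.94 (SE 0.08, limma adjusted p = 2.19e-05), with no overlap. Fgf11, the other homologous factor gene outside the 10, differed by 0.10 (adjusted p = 0.355).

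Fgf12, the fourth homologous factor gene, showed no difference that could be told from the spread. Its values were 6.50, 6.75, 6.24 and 6.42 in KO hearts, against 6.87, 6.75, 6.40 and 5.33 in WT hearts. WT replicate 4 stood below all other hearts, and the remaining 7 hearts overlapped. The difference was 0.14 (SE 0.28, 95% interval -0.49 to 0.77), and it was -0.20 without WT replicate 4 and -0.078 without the 3 hearts low in Bmp10. Atrial markers moved with Fgf12 within each group. In KO hearts Fgf12 was 6.24, 6.42, 6.50 and 6.75 where the atrial marker sum was 13127, 15045, 16601 and 18233. In WT hearts it was 5.33, 6.40, 6.75 and 6.87 where that sum was 5230, 12531, 13924 and 14670. The order of Fgf12 and of the sum was thus the same in both groups. The part of atrial content in the Fgf12 values was not tested.

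**Figure D2:**
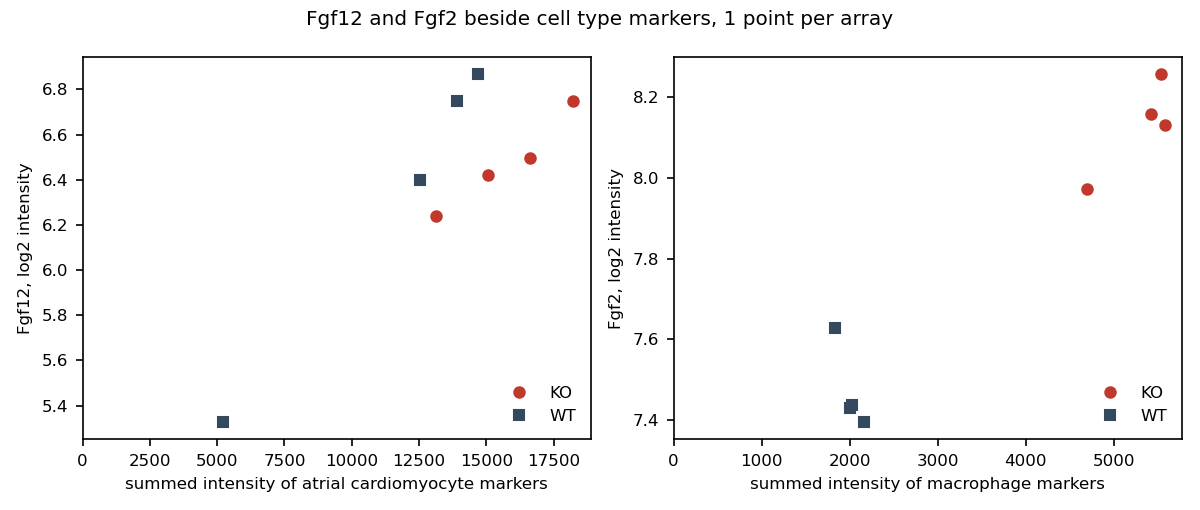
Fgf12 against the summed intensity of atrial cardiomyocyte markers (left) and Fgf2 against that of macrophage markers (right), with 1 point per heart, circles for KO and squares for WT. WT replicate 4 lies apart at a sum of 5230 and an Fgf12 value of 5.33, and the 4 KO hearts lie apart from the 4 WT hearts in both Fgf2 and the macrophage sum.

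Among the partners of the homologous factors, 1 of 7 tested genes rose and 1 fell (28.6% called, against 24.6% of all genes). This share is near that of all genes, so nothing is read from the count. Cacna1c, the pore subunit of the cardiac L-type calcium channel, which FGF13 was reported to modulate in mouse cardiomyocytes, fell by 0.45 on the log2 scale (SE 0.05, limma adjusted p = 9.03e-05). Scn4b, an auxiliary sodium channel subunit, rose by 1.09 (SE 0.22, adjusted p = 0.00499), with values of 7.83, 7.73, 7.85 and 8.12 in KO hearts, against 7.52, 6.48, 6.87 and 6.30 in WT hearts. WT replicate 1 lay closest to the KO range. Without the 3 hearts low in Bmp10 the difference of Scn4b was 0.70 (adjusted p = 0.0515). The sodium channel genes Scn1a, Scn3a, Scn8a, Scn9a and Scn2b lay below the filter.

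The 3 receptor members differed little. Fgfr1, the principal FGF receptor of the adult myocardium and its fibroblasts, had values of 8.75, 8.82, 8.65 and 8.62 in KO hearts, against 8.47, 8.60, 8.61 and 8.50 in WT hearts. The groups did not overlap, but the gap between them was small. The difference was 0.16 (SE 0.06, 95% interval 0.03 to 0.30), it was not called in the fit across all genes, and it lay between 0.13 and 0.20 over 18 alternative analyses, 5 of which called it. Fgfr2, the receptor with epithelial and mesenchymal splice forms, was dim, with values of 4.57, 4.59, 4.43 and 4.63 in KO hearts, against 4.86, 4.73, 4.65 and 4.42 in WT hearts. Its groups overlapped, and the difference was -0.11 (SE 0.09, 95% interval -0.31 to 0.08). It was -0.048 without WT replicate 1 and -0.19 without WT replicate 4. Fgfr4, a receptor for FGF19-type hormones and several paracrine ligands, had values of 5.13, 5.06, 5.01 and 5.54 in KO hearts, against 5.13, 5.06, 4.92 and 5.33 in WT hearts. Replicate 4 was the highest of each group, and the difference was 0.07 (SE 0.12, 95% interval -0.20 to 0.34). Without KO replicate 4 the difference of Fgfr4 was -0.046.

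Of the 10 members the fit across all genes called 4 (1 higher, 3 lower), where 24.6% of all genes were called. The 4 were Fgf2, Fgf9, Fgf13 and Fgf16. Groups did not overlap for 5 of the 10, the same 4 and Fgfr1, against 28.6% of all genes. The median difference of the 10 was 0.05. Since the members were chosen on this contrast, nothing is read from these counts.

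The rest of the family was tested from a list that held none of the 10. Of 13 further ligand genes, 11 were above the filter, 0 rose and 1 fell (9.1% called, against 24.6% of all genes). The gene that fell was Fgf18, a relative of Fgf8 and Fgf17 known for bone and lung growth. It had values of 6.84, 6.87, 6.74 and 6.69 in KO hearts, against 7.35, 7.41, 7.28 and 7.41 in WT hearts, a difference of -0.58 (SE 0.06, limma adjusted p = 6.84e-05), and the groups did not overlap. The other 10 tested ligand genes differed by between -0.07 and 0.11 (adjusted p between 0.344 and 0.968), and their group means lay between 4.70 and 6.49. Fgf6 and Fgf10 were below the filter. Fgfr3 differed by 0.29 (SE 0.12, adjusted p = 0.102), and without WT replicate 4, which had the highest Fgfr3 value in WT (6.86, against 6.27 to 6.65), by 0.40 (adjusted p = 0.0153). Without the 3 hearts low in Bmp10 it was 0.35 (adjusted p = 0.0489). The decoy-like receptor gene Fgfrl1, which lacks the kinase part, differed by -0.07 (adjusted p = 0.475). Of the 5 tested genes of receptors, co-receptors and binding proteins, 0 were called by limma, with 1 at an unadjusted p under 0.05.

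**Figure D3:**
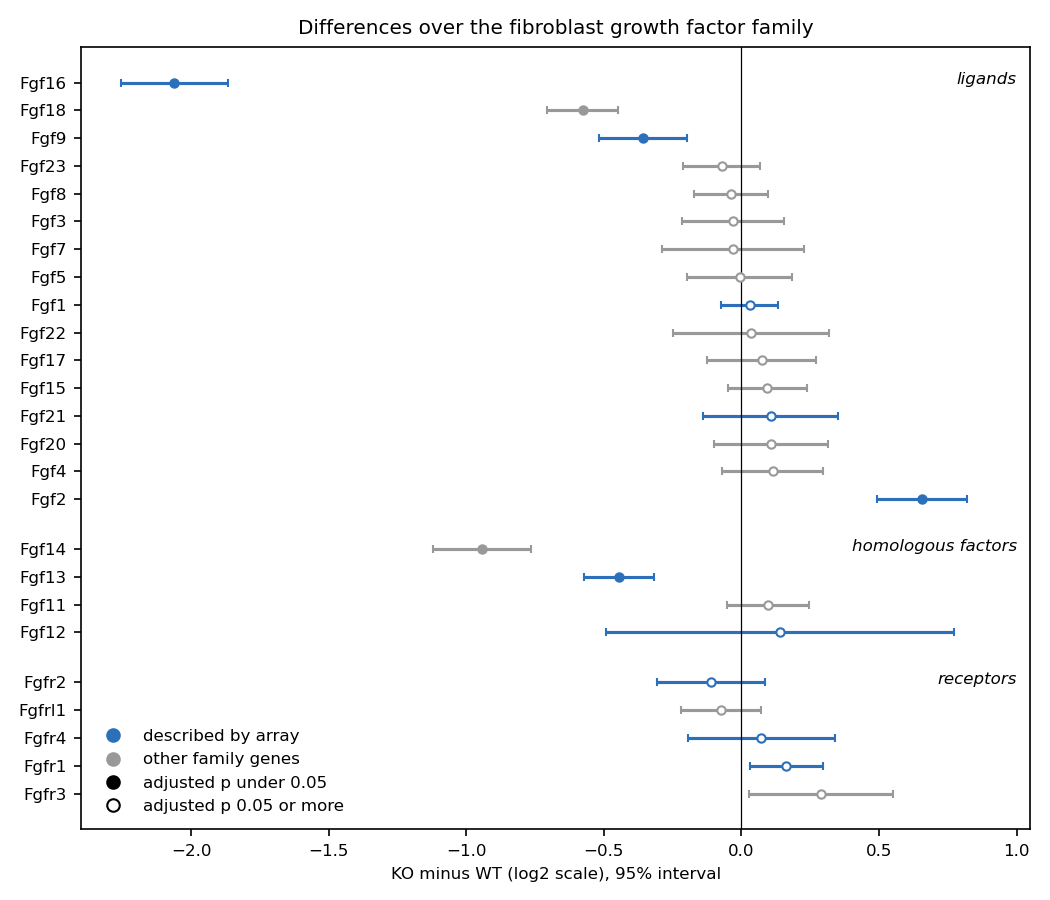
KO minus WT differences on the log2 scale with 95% intervals for the 25 tested genes of the family, split into ligands, homologous factors and receptors. Blue marks the 10 genes described by array and grey the others, and filled points were called at a limma adjusted p under 0.05. Fgf16 lies at -2.06, Fgf14 at -0.94 and Fgf2 at 0.66, and most of the remaining genes lie near 0.

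Downstream of the receptors, few genes changed. Of 16 tested adaptor and kinase genes 0 rose and 2 fell (12.5% called, against 24.6% of all genes). Map2k2, which encodes the ERK kinase MEK2, fell by 0.35 on the log2 scale (SE 0.05, limma adjusted p = 0.000941), with values of 7.70, 7.61, 7.62 and 7.62 in KO hearts, against 8.04, 8.07, 7.91 and 7.93 in WT hearts. The adaptor gene Crkl fell by 0.19 (SE 0.05, adjusted p = 0.0258). The call of Crkl was lost without KO replicate 1 (adjusted p = 0.0817), KO replicate 4 (0.0512), WT replicate 1 (0.0561), WT replicate 3 (0.0507) and WT replicate 4 (0.0553), which left 1 call in the list, except that without KO replicate 4 another gene was called in its place. It was lost too without the 3 hearts low in Bmp10 (adjusted p = 0.155). The other 6 genes of the list were not analysed here.

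Of 14 tested feedback inhibitors and ERK-responsive transcription factors 1 rose and 1 fell (14.3% called, against 24.6% of all genes). Etv5, an ETS transcription factor gene induced by FGF signalling in many tissues, had values of 7.32, 7.36, 7.35 and 7.25 in KO hearts, against 6.78, 6.70, 6.64 and 6.64 in WT hearts (difference 0.63, SE 0.05, limma adjusted p = 1.92e-05). Spry2, a feedback inhibitor of receptor tyrosine kinases, had values of 5.99, 6.11, 5.95 and 5.95 in KO hearts, against 6.56, 6.61, 6.26 and 6.16 in WT hearts (difference -0.40, SE 0.10, adjusted p = 0.0145). Neither gene had overlapping groups. With the mean of its clusters in place of the brightest, Etv5 differed by 0.50 (limma adjusted p = 0.00133). The list's median was 0.01. Without WT replicate 2 the list had 4 calls, with Spred1 (adjusted p = 0.00618) and Dusp6 (0.0159) called higher as well. The list had 3 calls without WT replicate 3, where Spry4 was called lower as well (limma adjusted p = 0.0292).

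Among heparan sulfate proteoglycans and the enzymes that make or trim their chains, 2 of 24 tested genes rose and 3 fell. The share called was 20.8%, against 24.6% of all genes, and the median was -0.03. Gpc1, a membrane-anchored glypican, had values of 9.02, 9.02, 9.003 and 8.93 in KO hearts, against 9.62, 9.57, 9.56 and 9.61 in WT hearts (difference -0.60, SE 0.05, limma adjusted p = 1.31e-05). The glypican gene Gpc4 fell by 0.29 (SE 0.07, adjusted p = 0.0124). The syndecan gene Sdc3 rose by 0.29 (SE 0.06, adjusted p = 0.00814), and Sulf1, a sulfatase that trims heparan sulfate outside the cell, rose by 0.27 (SE 0.07, adjusted p = 0.0167). The chain-starting enzyme gene Extl3, named after its values were seen, fell by 0.22 (adjusted p = 0.036). Without KO replicate 1 the list had 3 calls, as Sulf1 (adjusted p = 0.0556) and Extl3 (0.0717) were lost. The call of Extl3 was also lost without WT replicate 1 (adjusted p = 0.0761), WT replicate 2 (0.0804), WT replicate 3 (0.059) and WT replicate 4 (0.0502). Without the 3 hearts low in Bmp10 the list had 2 calls, as Gpc4 (adjusted p = 0.0759), Sulf1 (0.102) and Extl3 (0.13) were lost.

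**Figure D4:**
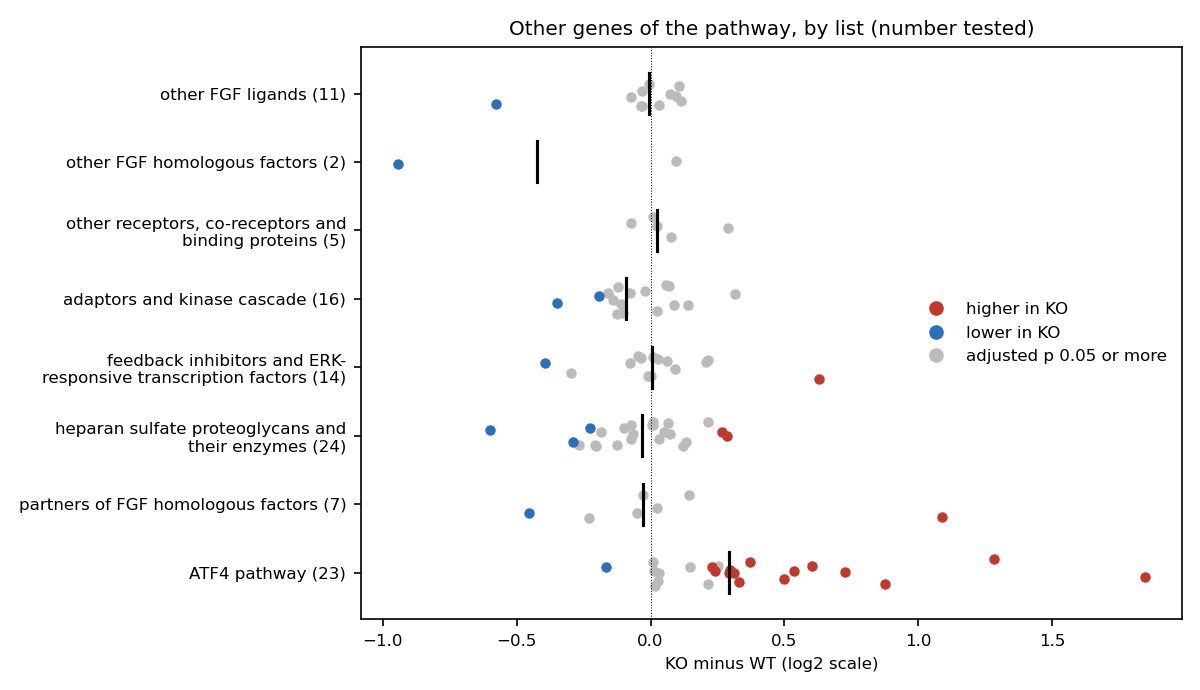
KO minus WT differences on the log2 scale of the tested genes in 8 lists of pathway genes outside the 10, with 1 point per gene, red for higher and blue for lower in KO at a limma adjusted p under 0.05 and grey for the rest. Black bars are list medians. In the ATF4 list 14 of 23 genes lie among the higher ones, while in the adaptor list 2 of 16 were called, both lower.

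Over the 8 arrays, the genes whose log2 values were most like those of Fgf16 were Myocd, a coactivator of serum response factor, Ipo13, Cdh2 (N-cadherin), Echdc2 and Osbpl6. Their Pearson correlations with Fgf16 were 0.997 to 0.998 over 8 arrays. The 2 groups lie apart for all of these genes, so the correlation is mostly that of the group difference. For deviations from the group means it was 0.78 to 0.89. Their own differences ran from -1.18 (Myocd) to -0.38 (Cdh2), smaller than that of Fgf16. The genes most like Fgf21 were Cbfa2t3, Olfr633, Ppfia1, Abtb1 and Cpne9, with correlations of 0.941 to 0.968 and differences of 0.06 to 0.10, of which 0 were called (adjusted p between 0.318 and 0.638). Both sets of genes were picked as the highest correlations among the 14950 genes tested, over only 8 arrays. The values of Fgf21 lay close to the filter level. Whether such correlations exceed those that unrelated genes would give was not tested.

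The gene order of RefSeq (GRCm38.p6) was used, after the values had been seen, to set Fgf16 and Fgf2 beside their neighbours. Fgf16 lies on chromosome X. The nearest 3 tested protein-coding genes after it were Atrx (-0.10, limma adjusted p = 0.175), Magt1 (0.32, adjusted p = 0.00321) and Cox7b (-0.03, adjusted p = 0.723). Those before it were Magee1 (-0.19, adjusted p = 0.0435), Pbdc1 (0.10, adjusted p = 0.401) and Zdhhc15 (0.13, adjusted p = 0.29). None of these 6 differed by an amount near the -2.06 of Fgf16. That was the 6th largest difference of all genes tested, so few genes could come near it, and nothing is read from this. Fgf2 lies on chromosome 3 beside Nudt6, which is transcribed from the opposite strand, and Nudt6 differed by -0.16 (adjusted p = 0.0899). Of the nearest 3 tested protein-coding genes on each side of Fgf2, Cetn4 was the 1 that was called (0.35, adjusted p = 0.0295).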

How the data were processed

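RNA of 8 mouse hearts was profiled, 4 KO and 4 WT, with 1 array each. The deposited table holds linear intensities of 27541 transcript clusters. The authors used Partek and RMA, per the submitters' processing notes, and the sources used here give no version or probe annotation build. The table has no detection calls or scan dates, so no batch was examined, and the number of arrays limits the precision.

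Of the clusters, 21631 had 1 symbol in the platform annotation. Each gene was read from its brightest cluster. The 4983 genes in the dimmest 25% by mean (below log2 4.5) were dropped. KO was compared with WT on log2 values in limma 3.58.1 (R 4.3.3, moderated two-sided test, 6 residual degrees of freedom before moderation), with Benjamini-Hochberg adjustment over 14950 genes. The test was checked on simulated data. Marker sums add the intensities of the tested markers. Figures were drawn with matplotlib 3.10.9.

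The members, lists and tests were chosen with earlier results of these data known. Named genes were Hdac3, the members, called family genes, up to 4 called genes of a list by smallest p (up to 2 where none was called), and the 5 genes most correlated with Fgf16 and with Fgf21. Alternatives changed the scaling, filter, offset, variance model, array weights, cluster handling or threshold, added the replicate number as a block, or left out arrays.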

Additional observations from a re-analysis of the deposited data

Results flagged for a closer look

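Among 80 groups of 4 hearts examined, over 40 genes (Hdac3 and genes of the family and the pathway), 5 held a heart whose gap to its nearest neighbour exceeded the 95% critical value of Dixon's test. Chance alone flags about 1 group in 20, or 4 of 80. KO replicate 4 was the heart that stood apart in 4 of the 5. It was the lowest KO heart for Hdac3 (8.50, against 8.59 in each of the other 3) and for Sulf1 (7.49, against 7.67 to 7.71). It was the highest KO heart for Fgf17 (5.91, against 5.56 to 5.60) and for Fgf8 (6.52, against 6.42 to 6.43). KO replicate 1 was the highest KO heart for Map2k2 (7.70, against 7.61 to 7.62). None of the 10 FGF members had such a heart, WT replicate 4 for Fgf12 included, whose ratio was 0.696.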

How the results depend on the processing

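Fgf2, Fgf9, Fgf13 and Fgf16 kept their direction and their call under all 18 alternatives in which their difference was computed. The number of members called was 4 or 5 throughout. Since the members were chosen on this contrast, these calls show the effect of the processing only and lend the differences no support. At an adjusted p under 0.01, 2210 genes were called in all, with 1 call among adaptors and kinases, 1 among feedback genes and 2 among heparan sulfate genes. Array weights gave 4 calls among feedback genes. The replicate block gave 8 calls among heparan sulfate genes and 3382 in all. No pairing by replicate number was seen, since deviations of same-numbered hearts correlated at -0.04 to 0.08. These correlations cannot exclude that same-numbered hearts were matched, and the labels do not say. Leaving out 1 heart at a time gave 2871 to 3619 calls in all, 0 to 1 among receptors and binding proteins, 1 to 2 among adaptors and kinases, 2 to 4 among feedback genes and 3 to 6 among heparan sulfate genes. The difference of Fgf12 then lay between -0.20 (without WT replicate 4) and 0.32, and that of Fgfr4 between -0.046 (without KO replicate 4) and 0.15.

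Leaving out the 3 hearts low in Bmp10 was chosen after seeing the data. With 3 KO and 2 WT hearts left, 2328 genes were called, with 1 call among receptors and binding proteins, 1 among adaptors and kinases, 2 among heparan sulfate genes and 1 among partners of the homologous factors. The 4 called members stayed called, Fgf1 differed by -0.0035 and Fgf12 by -0.078. Fgf21, Fgfr2 and Fgfr4 were too dim to be tested under the stricter filter. Beyond the fewer hearts or the stricter threshold by which the alternatives are defined, the cause of these moves was not tested.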
